A study of Mus musculus with 12 samples.

Results

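Solute carriers are the membrane transporters that move nutrients, ions, metals and metabolites across the cell surface and the membranes of organelles. The genes described here were the protein-coding genes of the deposited table whose symbol begins with Slc, a number and a letter, and which reached 5 FPKM in at least 2 of 12 libraries. FPKM counts fragments relative to the length of the transcript and the depth of sequencing. The table holds 47729 genes, of which 377 had such a symbol and 369 of those were protein coding. The level threshold was met by 126 of them and missed by 243, including 23 that were at 0 in every library. The members were thus chosen by their level in these same libraries, and that they were expressed is not a finding. By symbol, 122 members are named as transporters, while Slc9a3r1, Slc9a3r2, Slc7a6os and Slc4a1ap encode proteins that were named after a transporter and are not transporters themselves.

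The cells were E14Tg2a, a mouse embryonic stem cell line of strain 129/Ola, kept in serum-free N2B27. The tested line, delta 0.7 in the labels and called delta here, lacks a regulatory region of the transcription factor gene Tcf15 on both alleles. The wild type (WT) line has the region. Each genotype was sampled in 2i with LIF, which holds cells in the naive state (0 h), and after 12 and 24 h on fibronectin with Activin, bFGF and KOSR, a route toward epiblast-like cells. There were thus 6 groups, with 2 libraries in each. The delta columns carry the name of 1 clone, so genotype and clone cannot be told apart. Separate cultures are not named in the labels for the replicates, so p-values take in only how these samples spread, and that may be technical.

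Naive mouse stem cells and the epiblast-like cells that follow them differ in fuel use: the naive state combines respiration with glycolysis, and glycolysis takes over in the later state. Such a shift needs glucose uptake by GLUT proteins of the Slc2 family and export of lactate by monocarboxylate carriers of the Slc16 family. Amino acids enter through sodium-coupled carriers and through exchangers, zinc through ZIP proteins of the Slc39 family, and zinc leaves the cytosol through ZnT proteins of the Slc30 family. Carriers of the Slc25 family cross the inner membrane of mitochondria.

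Promoter windows of 3 members with wide ranges of level over the libraries are shown, because each holds a short motif that is known to mark regulation by its substrate or by oxygen. They run from 250 bases before to 50 after a RefSeq start (GRCm38.p6, the assembly called mm10), are written 5′ to 3′ on the strand of the gene, and have the motif matches in capitals. Slc7a7 (chr14:54417895-54418194, minus strand) has 2 matches to TGATGNAA, the core of the amino acid response element, in the outermost of its 5 listed promoters. Slc30a2 (chr4:134343216-134343515, plus strand) has 3 matches to TGCNCNC, a loose form of the metal response element core TGCRCNC, where R is A or G. All of them are on the opposite strand. The last reads TGCTCTC there and does not meet the stricter core. Slc16a3 (chr11:120948817-120949116, plus strand) has 2 matches to ACGTG, the core of the hypoxia response element. The Slc30a2 and Slc16a3 windows lie inside the gene bodies of the GENCODE M21 annotation.
Slc7a7: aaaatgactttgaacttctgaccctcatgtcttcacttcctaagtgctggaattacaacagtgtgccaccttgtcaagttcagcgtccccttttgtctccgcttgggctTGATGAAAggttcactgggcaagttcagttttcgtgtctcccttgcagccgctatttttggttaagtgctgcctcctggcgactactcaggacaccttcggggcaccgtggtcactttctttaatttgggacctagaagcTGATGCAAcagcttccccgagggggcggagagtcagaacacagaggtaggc
Slc30a2: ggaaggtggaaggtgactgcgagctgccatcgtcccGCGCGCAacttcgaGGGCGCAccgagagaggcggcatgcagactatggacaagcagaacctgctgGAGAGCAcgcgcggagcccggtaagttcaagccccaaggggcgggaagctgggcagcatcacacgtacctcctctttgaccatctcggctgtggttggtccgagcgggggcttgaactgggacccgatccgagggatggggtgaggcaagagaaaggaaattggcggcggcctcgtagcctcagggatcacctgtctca
Slc16a3: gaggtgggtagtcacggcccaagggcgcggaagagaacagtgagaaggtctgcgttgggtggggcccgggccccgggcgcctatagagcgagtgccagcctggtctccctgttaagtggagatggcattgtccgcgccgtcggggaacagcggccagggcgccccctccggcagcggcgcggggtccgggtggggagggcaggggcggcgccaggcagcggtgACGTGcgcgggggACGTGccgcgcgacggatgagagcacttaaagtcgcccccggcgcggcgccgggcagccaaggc
Both strands were searched, and TCACGTGA contains ACGTG, so their matches overlap. Of 32851 RefSeq promoters, 3.97% held TGATGNAA, 51% held TGCNCNC and 19.6% held ACGTG. A total of 95 members had 132 promoters in the table, and the shares there were 3.03%, 66.7% and 31.1%. The CLEAR motif of lysosomal genes, TCACGTGA, was in 1.52% of member promoters and in 0.974% of all. A match is a description of the letters and not a site of binding.

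The libraries held 9740717 to 17570952 reads, recovered from the FPKM steps (median 12189705). In the 0 h replicate 1 libraries, ribosomal protein genes took 12.4% (delta) and 10.5% (WT) of reads, against 5.25% to 6.87% in the other 10. Member levels differed between the 0 h replicates with an SD of 0.77 in delta and 0.69 in WT (log2), against 0.22 to 0.42 in the 4 later groups. The share of reads from genes of the mitochondrial genome was 0.448% to 0.647% in replicate 1 libraries and 1.80% to 2.87% in replicate 2 libraries. The summed FPKM of 10 fibroblast markers was 2.74 to 7.01 in the delta libraries, at 0, 12 and 24 h it was 21.7, 49.0 and 43.3 in WT replicate 1, and 1.89, 5.16 and 5.76 in the other WT replicate. Fewer cells of a type and less RNA per cell cannot be told apart in such bulk samples. Of that list, S100a4 was at 0 in every WT library, Postn and Lum stayed under 0.3 FPKM throughout, and Tagln reached 21.1 FPKM. The 7 primitive endoderm markers summed to 0.298 to 0.990 FPKM, and the 7 stem cell markers summed to 1729 to 3036 FPKM. The 5 formative epiblast markers summed to 29.8 to 37.99 FPKM at 0 h, 97.9 to 171 at 12 h and 309 to 467 at 24 h. Tcf15 was at 1.04 to 4.44 FPKM in the delta libraries and at 3.45 to 99.4 FPKM in the WT libraries, with no overlap at any time.

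The mean of a member over the 12 libraries ran from 1.75 to 345 FPKM, with a median of 9.74. Only 14 members averaged 50 FPKM or more, 47 lay between 10 and 50, and 65 were lower. The 10 most abundant members made up 39.4% to 47.1% of the summed member FPKM of a library. They were Slc25a5 (345 FPKM) and Slc25a4 (83.7), the ADP/ATP carriers of mitochondria, Slc25a3 (139), the mitochondrial phosphate carrier, Slc25a39 (96.6), which brings glutathione into mitochondria, Slc38a2 (113), Slc7a3 (87.9) and Slc7a5 (66.1) for amino acids, Slc2a3 (111.8) and Slc2a1 (71.3) for glucose, and Slc9a3r1 (101), a scaffold protein. All members together took 0.781% to 1.22% of reads.

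**Figure D1:**
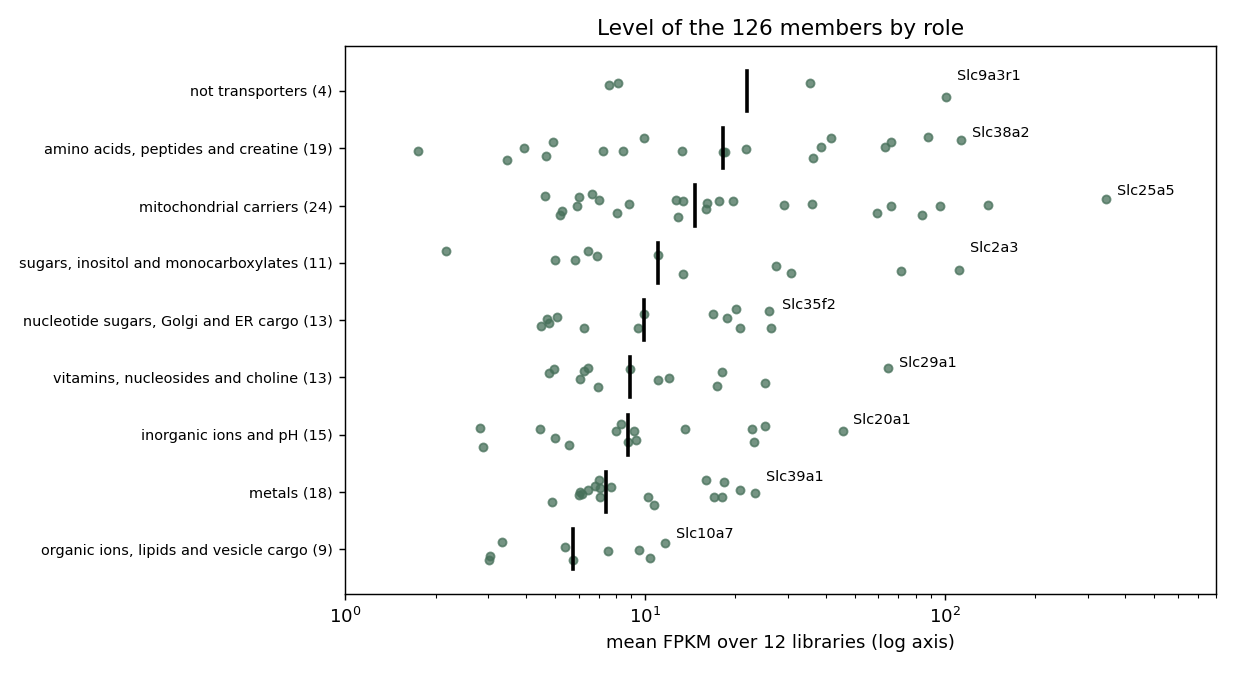
Mean FPKM over 12 libraries (log axis) of the 126 members, grouped by role. Each point is a member, the black bar is the median of the role, and the most abundant member of each role is named. Mitochondrial carriers and amino acid transporters reach the highest levels, with Slc25a5 at 345 FPKM, and the metal transporters stay at 23.3 FPKM or lower.

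Roles were assigned from gene symbols, so the cargo and place of a single member can differ from its role. By role, 24 members were mitochondrial carriers, 19 carried amino acids, peptides or creatine, 18 carried metals, 15 inorganic ions, 13 vitamins, nucleosides or choline, 13 nucleotide sugars or other cargo of the Golgi and endoplasmic reticulum, 11 sugars, inositol or monocarboxylates, and 9 organic ions, lipids or vesicle cargo. Amino acid transporters made up 11.6% and 16.2% of summed member FPKM at 0 h, 22.1% and 21.8% at 12 h and 24.6% and 26.5% at 24 h in delta. In WT the shares were 13% and 16.1%, 20.7% and 19.7%, and 23.2% and 23.1%. For this role as a sum, every later library was thus above all 0 h libraries of its genotype. The sum is weighted to the abundant members. The median log2 change of the 19 members at 24 h was -0.02 in delta and 0.13 in WT, so the role as a whole is not said to rise. Mitochondrial carriers made up 49.7% (delta) and 44.6% (WT) in the 0 h replicate 1 libraries and 31% to 36.3% in the other 10.

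Of the members, 70 were at 5 FPKM or more in all 12 libraries and 6 in exactly 2. Nearest above the threshold were Slc9a8, Slc12a8 and Slc6a7, whose second highest values were 5.10, 5.11 and 5.21 FPKM, and nearest below it were Slc35b3, Slc16a6 and Slc17a5, whose second highest values were 4.95, 4.87 and 4.58 FPKM. The cystine exchanger Slc7a11 did not reach the threshold. A gene that met the threshold only in the groups where it was high had to differ. Test results are therefore given for the 88 members that averaged at least 5 FPKM and reached it in at least 1 library of every group. The other 38 are described without a test. Exons of Slc24a5, Slc33a1 and Slc25a35 overlap those of a gene on the other strand over 39.5%, 32.0% and 31.3% of their length, 4 more members do so over more than 10%, and Slc39a7 shares 80.7% with a readthrough gene on its own strand. Their values are uncertain, since the use of strand in counting was not stated.

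During induction, members moved in either direction. A single limma model on log2(FPKM + 1) gave each of the 6 groups a mean, and a gene was called at a Benjamini-Hochberg adjusted p under 0.05 over 13981 genes. In delta at 24 h against 0 h, 17 of the 126 members were called higher, beside 7.58% of all genes tested, and 17 lower, beside 7.8%. In WT the counts were 15 members higher, beside 5.27% of genes, and 14 lower, beside 4.94%. At 12 h against 0 h, 13 were higher in delta (background 3.55%) and 6 lower (background 3.45%), while in WT 9 were higher (2.13%) and 5 lower (1.9%). As shares of the members these were 13.5% and 13.5% in delta and 11.9% and 11.1% in WT at 24 h, and 10.3% and 4.76% in delta and 7.14% and 3.97% in WT at 12 h. Nothing is read from these shares, since the level rule also admits genes through the group where they are high. The median change of members lay between -0.03 and -0.00 in the 4 comparisons, and that of all genes between -0.05 and -0.02 (log2).

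Among the 88 members open to a test, 9 rose and 9 fell in delta and 7 rose and 8 fell in WT at 24 h. At 12 h the counts were 8 and 4 in delta and 5 and 2 in WT. Of all genes tested, 7.58% rose and 7.8% fell in delta at 24 h, and 5.27% and 4.94% in WT. At 12 h these shares were 3.55% and 3.45% in delta and 2.13% and 1.9% in WT. The same shares stand beside the counts by role given below. Those counts are small, and nothing is read from them about a role. At 24 h, 15 of these 88 were called the same way in both genotypes, which is 83.3% of their delta calls and 100% of their WT calls, and 0 were called opposite ways. Over the 7974 protein-coding genes that met the same level threshold, the calls shared in direction were 63.5% of the delta calls and 95.6% of the WT calls, and over all genes tested 60.2% and 90.7%. Those genes did not have to average 5 FPKM or reach it in every group, as the 88 did. The sets are thus not alike, and nothing is read from the gap between the shares. With any 1 of the 12 libraries left out, 4 of the 9 rises and 5 of the 9 falls at 24 h held in delta, and 3 of 7 and 2 of 8 in WT. Over all 126, 8 were higher and 9 lower in delta at 24 h without delta 24 h replicate 2, 29 were higher in delta without delta 0 h replicate 2, and 8 were higher and 6 lower in WT without WT 24 h replicate 1. At 12 h, 0 of these calls held in delta in all such fits, and that of Slc29a1 held in WT. Scaling each library to a fixed sum of FPKM (TPM) moved the median change of all genes by 0.41 in delta and 0.20 in WT at 24 h (log2), and by 0.39 and 0.14 at 12 h. Under that scaling 19 members were higher and 7 lower in delta at 24 h, 14 and 6 in WT, and at 12 h 15 and 1 in delta and 8 and 1 in WT.

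**Figure D2:**
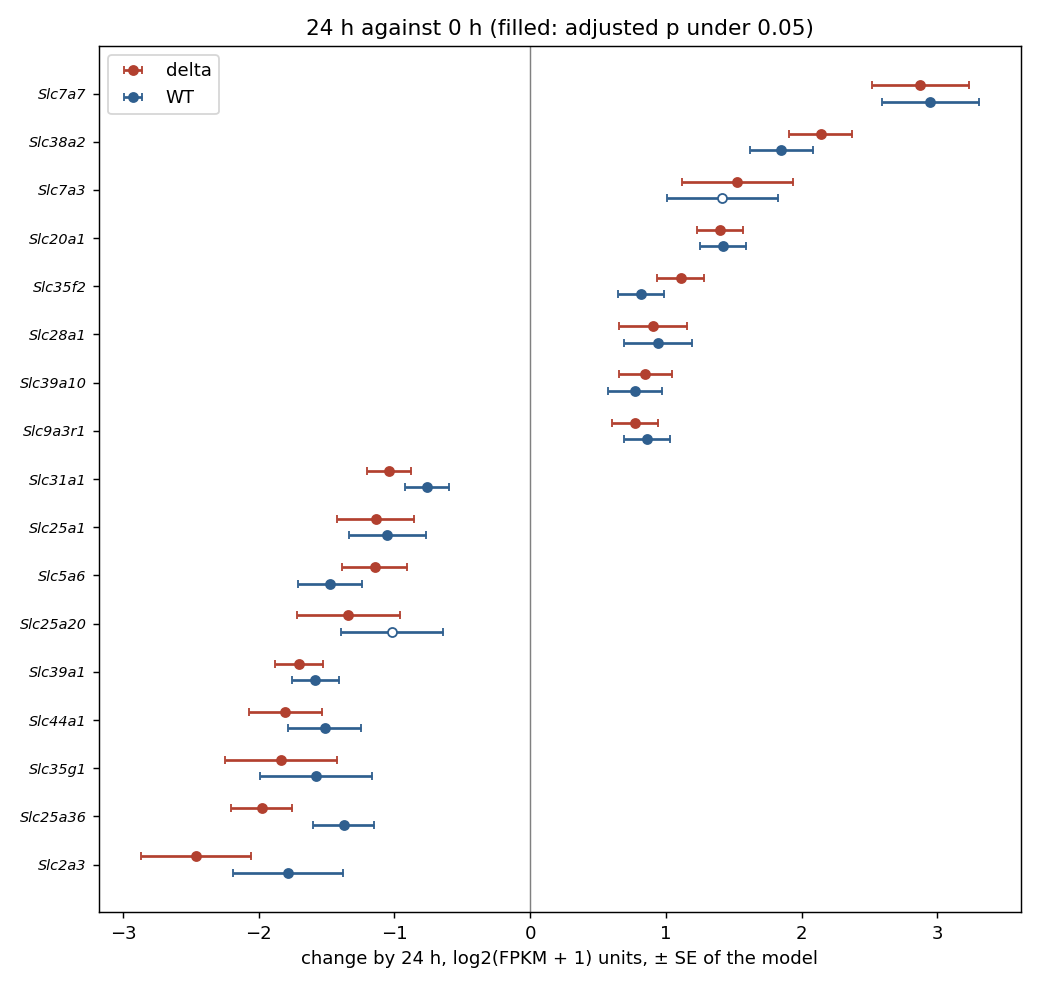
Change at 24 h against 0 h in log2(FPKM + 1) units (horizontal axis) with the SE of the model, for 17 members named by size, in delta (upper point of each pair) and WT (lower point). Filled points have an adjusted p under 0.05. Changes run from a fall of Slc2a3 by 2.46 in delta to a rise of Slc7a7 by 2.95 in WT, and the points of Slc7a3 and Slc25a20 are filled in delta and open in WT, a difference that was not called by the test between genotypes.

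Amino acid transporters gave the largest rise that passed the test at 24 h in each genotype, that of Slc7a7. Of 13 such members open to a test, 3 rose and 0 fell in delta at 24 h, and 2 rose and 0 fell in WT. Of all genes tested, 7.58% rose and 7.8% fell in delta, and 5.27% and 4.94% in WT. Slc7a7 (chr14:54369442-54417780, mm10), the light chain that pairs with CD98 to exchange cationic for neutral amino acids, was at 9.89 and 10.4 FPKM at 0 h, 59.6 and 55.6 at 12 h and 77.4 and 83.6 at 24 h in the delta libraries. In WT it was at 9.14 and 4.13 FPKM, then 50.4 and 28.4, then 66.8 and 44.6. All later libraries were above all 0 h libraries, and its lowest library held 177 reads. The change at 24 h was 2.87 ± 0.36 in delta (SE of the model, log2, adjusted p = 0.000949) and 2.95 ± 0.36 in WT (adjusted p = 0.00113). WT replicate 2 was the lowest of the 4 libraries at every time. The 283 genes of chromosome 14 were lower there too, with a median difference of replicate 2 from replicate 1 of -0.46, -0.31 and -0.31 in WT at 0, 12 and 24 h and -0.19, -0.07 and -0.08 in delta (log2). The part of this in the Slc7a7 level was not tested.

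Slc38a2 (chr15:96687392-96699730), a sodium-coupled carrier of small neutral amino acids that cells raise when amino acids are short, was the most abundant member of this role. It was at 40.2 and 57.3 FPKM at 0 h, 119 and 115 at 12 h and 204 and 228 at 24 h in delta. The WT values were 36.8 and 52.6, then 98.3 and 86.5, then 160.5 and 162 FPKM. Levels climbed at each step in both genotypes with no overlap between times, by 2.14 ± 0.23 in delta (adjusted p = 0.000459) and 1.85 ± 0.23 in WT at 24 h (adjusted p = 0.00129). The glutamine and neutral amino acid exchanger Slc1a5 did not pass the test. Its group means went down at each step in both genotypes, so the ratios that follow take in that drop too. Within a library, Slc38a2 was 2.53 and 1.82 times Slc1a5 at 0 h, 7.31 and 6.27 times at 12 h and 15.6 and 16 times at 24 h in delta. In WT the ratios were 1.77 and 1.96, then 5.52 and 5.42, then 9.45 and 12.2.

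Slc7a3, a carrier of arginine, lysine and ornithine on the X chromosome, was at 62.2 and 25.3 FPKM at 0 h, 137 and 114 at 12 h and 125 and 108 at 24 h in delta. It was at 51.8 and 28.2, then 112.2 and 83.1, then 108 and 99.3 FPKM in WT. The 0 h libraries were the lowest of each genotype. The rise at 24 h was 1.52 ± 0.41 in delta (adjusted p = 0.0355) and 1.42 ± 0.41 in WT (adjusted p = 0.0600), and the delta call was lost in 9 of 12 fits with 1 library left out. Its ratio to Slc7a1, another member for cationic amino acids, was 7.53 and 1.33 at 0 h and 25.9 and 19.1 at 24 h in delta. In WT it was 4.36 and 1.56 at 0 h and 13.4 and 14.4 at 24 h. The group means of Slc7a1 went down at each step in both genotypes, so the ratio takes in that drop too. Slc38a7, which exports glutamine from lysosomes, was at 4.23 and 4.78 FPKM at 24 h against 8.10 and 18.3 FPKM at 0 h in delta. It is described without a test, since both delta libraries of 24 h were under the threshold. The large neutral amino acid exchanger Slc7a5 and its heavy chain Slc3a2, which is CD98, did not pass in any time comparison. Slc7a5 was at 42.0 to 76.7 FPKM over all libraries, and Slc3a2 at 53.0 to 72.5 FPKM.

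Glucose and lactate carriers changed places in their order of abundance. Of 7 members for sugars, inositol and monocarboxylates open to a test, 0 rose and 1 fell at 24 h in each genotype. Slc2a3, the high-affinity glucose transporter GLUT3 (chr6:122727809-122801640), was at 105 and 298 FPKM at 0 h, 103 and 104 at 12 h and 28.04 and 34.8 at 24 h in delta. In WT it was at 149.9 and 193, then 126 and 103, then 51.9 and 45.5 FPKM. The 24 h libraries were the lowest in each genotype, while the delta 0 h replicates stood far apart. The fall at 24 h was 2.46 ± 0.41 in delta (adjusted p = 0.00384) and 1.79 ± 0.41 in WT (adjusted p = 0.0233). Leaving out any library of WT at 0 or 24 h took the WT call away, and scaling to a fixed sum took both. Slc2a1, the widespread glucose transporter GLUT1, did not pass, at 64.7 and 71.2 FPKM at 24 h against 80.5 and 104 FPKM at 0 h in delta and at 60.5 and 58.5 against 95.9 and 62.1 FPKM in WT. Within a library, which no scaling alters, Slc2a3 was 1.30 to 3.10 times Slc2a1 in the 8 libraries of 0 and 12 h. At 24 h it was 0.433 and 0.490 times Slc2a1 in delta and 0.859 and 0.777 times in WT.

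Slc16a3, the lactate exporter MCT4 (chr11:120948480-120960868), was at 14.7 and 19.5 FPKM at 0 h, 11.2 and 5.39 at 12 h and 85.6 and 52.8 at 24 h in delta. The WT libraries had 17.8 and 1.34, then 6.54 and 2.41, then 73.0 and 37.3 FPKM. Both 24 h libraries were above all earlier ones in each genotype, but the replicates lay far apart. The change at 24 h was 1.93 ± 0.85 in delta (adjusted p = 0.161) and 3.004 ± 0.85 in WT (adjusted p = 0.0561), so neither passed. In WT the replicate 1 libraries, which had the higher fibroblast marker sums, were the higher at each time, and in delta replicate 1 was the higher at 12 and 24 h with markers at 2.99 and 5.27 FPKM. Whether what these markers reflect bears on the Slc16a3 level was not tested. Its ratio to Slc16a1, the monocarboxylate transporter MCT1, was 0.0587 to 0.514 in the 8 libraries of 0 and 12 h, 2.57 and 2.07 in delta at 24 h and 1.95 and 1.69 in WT at 24 h.

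**Figure D3:**
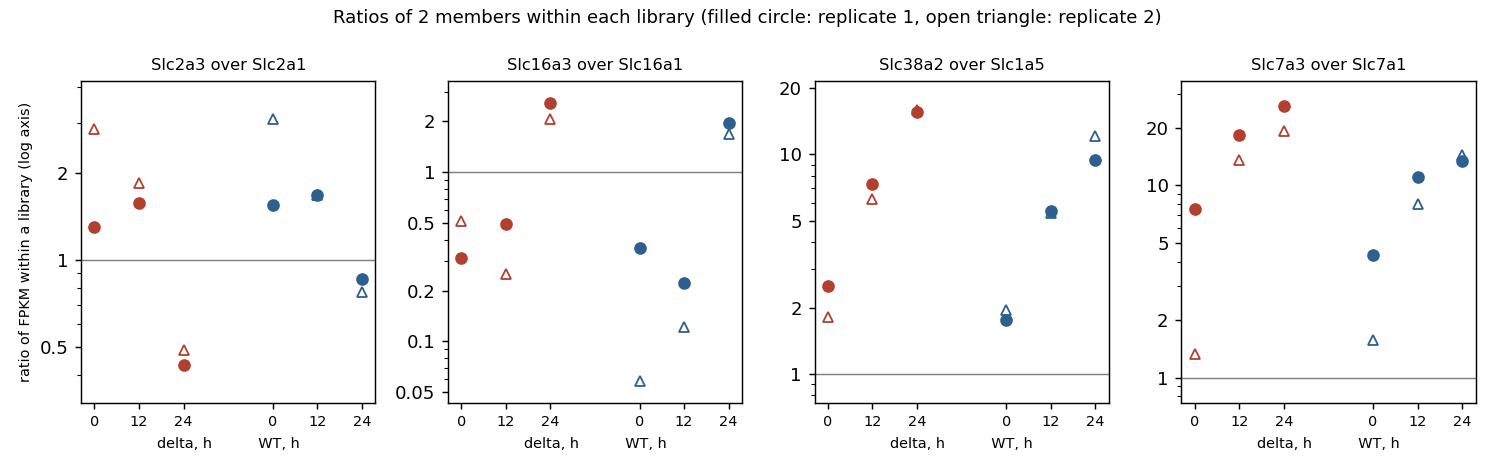
Ratio of 2 members within each library (log axis) by time in hours, for delta (left of each panel) and WT (right), with filled circles for replicate 1, open triangles for replicate 2 and a grey line at equal levels. Slc2a3 over Slc2a1 is above 1 in all libraries of 0 and 12 h and below 1 at 24 h, Slc16a3 over Slc16a1 runs the other way, and Slc38a2 over Slc1a5 reaches 15.6 and 16 in delta at 24 h.

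Other members of the sugar role were low. Slc5a11, which takes up inositol with sodium, was at 8.66 and 9.62 FPKM at 24 h against 3.48 and 1.53 FPKM at 0 h in delta, and at 8.26 and 10.7 against 2.65 and 2.78 FPKM in WT. Both 24 h libraries were above both 0 h libraries in each genotype. Slc37a1, a sugar phosphate exchanger of the endoplasmic reticulum, was higher in every later library than in any library of 0 h. It was at 2.09 and 3.91 FPKM at 0 h, 8.76 and 8.78 at 12 h and 8.47 and 9.75 at 24 h in delta, with 1.88 and 3.09, then 9.12 and 8.18, then 9.45 and 9.44 FPKM in WT. Neither gene reached 5 FPKM at 0 h, so the choice of members favours the higher later level and no test is given.

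Of 12 metal transporters open to a test, 1 rose and 2 fell at 24 h in each genotype. Some of the widest ranges were in metal transporters that missed the threshold at 1 time, which are given without a test. One was Slc30a2 (chr4:134343181-134354484), the zinc transporter ZnT2, which loads zinc into vesicles. Its levels were 29.8 and 43.5 FPKM at 0 h, 7.77 and 10.2 at 12 h and 1.62 and 3.86 at 24 h in delta, and at 36.3 and 50.6, then 9.95 and 16.4, then 3.20 and 4.13 FPKM in WT. Each time was below the one before it with no overlap. It reached 5 FPKM in 0 libraries of 24 h. Slc39a11, the zinc importer ZIP11, was at 25.96 and 16.7 FPKM at 0 h, 6.88 and 6.03 at 12 h and 2.65 and 3.13 at 24 h in delta. The WT levels were 24.2 and 17.03, then 6.04 and 6.41, then 3.14 and 4.20 FPKM. It too was under the threshold in every 24 h library. Slc39a1, the surface zinc importer ZIP1 and the most abundant metal transporter, fell by 1.70 ± 0.18 in delta (adjusted p = 0.000390) and 1.58 ± 0.18 in WT (adjusted p = 0.000749). It was at 43.9 and 34.6 FPKM at 0 h, 17.1 and 15.04 at 12 h and 12.0 and 10.6 at 24 h in delta, and at 41.1 and 41.7, then 17.9 and 19.2, then 12.3 and 14.03 FPKM in WT. The 24 h fall of Slc39a1 was called in both genotypes in every alternative fit.

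Other ZIP proteins had their higher levels later. Slc39a14 (chr14:70303469-70351425), ZIP14, which imports zinc, iron and manganese, was at 1.46 and 1.23 FPKM at 0 h, 10.7 and 10.5 at 12 h and 7.67 and 9.28 at 24 h in delta. In WT it was at 1.13 and 0.808, then 10.7 and 6.08, then 6.95 and 6.01 FPKM. All later libraries were above all 0 h libraries, none of which reached the threshold, so no test is given. It shares chromosome 14 with Slc7a7, and WT replicate 2 was again the lowest library of each time. Slc39a10, the importer ZIP10, was at 22.5 and 20.7 FPKM at 24 h against 11.51 and 11.6 FPKM at 0 h in delta, and at 21.96 and 18.5 against 11.9 and 10.9 FPKM in WT. Its rise of 0.85 ± 0.20 in delta (adjusted p = 0.0197) was lost without either delta 24 h library, and that of 0.77 ± 0.20 in WT (adjusted p = 0.0389) in 8 of 12 fits with 1 library left out. The WT call of Slc39a10 was also lost under scaling to a fixed sum. Slc48a1, which moves heme out of lysosomes, was at 11.6 and 10.1 FPKM at 24 h against 3.94 and 6.50 FPKM at 0 h in delta, and at 11.7 and 11.04 against 4.04 and 4.08 FPKM in WT. It is given without a test, since both WT libraries of 0 h were under the threshold.

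Slc31a1, the copper importer CTR1, was at 12.2 and 10.5 FPKM at 24 h against 25.97 and 22.7 FPKM at 0 h in delta, and at 12.6 and 11.7 against 22.4 and 20.2 FPKM in WT. The fall was 1.04 ± 0.17 in delta (adjusted p = 0.00323) and 0.76 ± 0.17 in WT (adjusted p = 0.0193, lost without WT 0 h replicate 1 or either WT 24 h library), and neither call held under scaling to a fixed sum. Among the abundant zinc transporters that did not pass, Slc30a5, which supplies zinc to the secretory pathway, kept to 16.4 to 20.9 FPKM over all 12 libraries. Slc39a4, the intestinal zinc importer ZIP4, spanned 12.0 to 29.3 FPKM. Slc30a1, the zinc exporter of the cell surface, was at 5.37 to 9.30 FPKM.

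**Figure D4:**
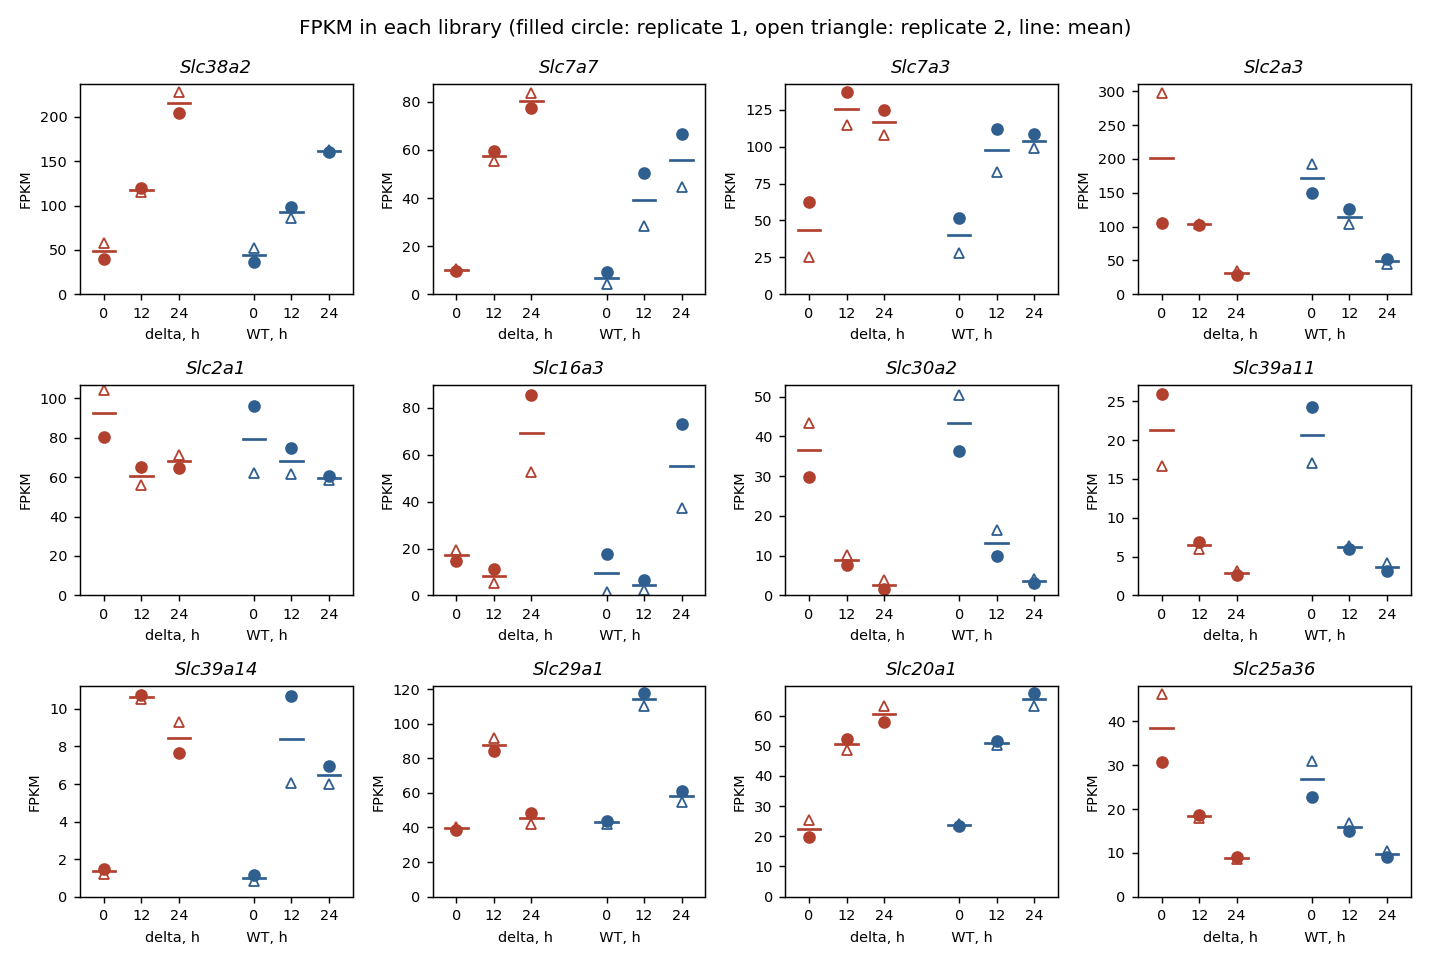
FPKM of 12 members in each library by time in hours, for delta (left of each panel) and WT (right), with filled circles for replicate 1, open triangles for replicate 2 and lines for the mean of each group. Slc38a2 and Slc20a1 climb at each time, Slc30a2 and Slc39a11 drop at each time, Slc29a1 peaks at 12 h with 84.0 to 118 FPKM, and Slc2a3 and Slc16a3 show the widest gaps between replicates.

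Of 19 mitochondrial carriers open to a test, 0 rose at 12 or 24 h in either genotype. At 24 h, 3 fell in delta and 2 in WT. Of all genes tested, 7.58% rose and 7.8% fell in delta at 24 h, and 5.27% and 4.94% in WT. Slc25a36, which carries pyrimidine nucleotides, was at 30.8 and 46.2 FPKM at 0 h, 18.6 and 18.04 at 12 h and 9.02 and 8.68 at 24 h in delta, and at 22.7 and 30.98, then 15.003 and 16.8, then 8.999 and 10.3 FPKM in WT. The fall at 24 h was 1.98 ± 0.22 in delta (adjusted p = 0.000600) and 1.37 ± 0.22 in WT (adjusted p = 0.00516, lost without WT 24 h replicate 1). Scaling to a fixed sum also took the WT call away. Slc25a1, which exports citrate for fatty acid and sterol synthesis, was at 50.1 and 41.5 FPKM at 24 h against 98.5 and 105 FPKM at 0 h in delta, and at 55.7 and 36.3 against 114 and 78.4 FPKM in WT. It fell by 1.14 ± 0.28 in delta (adjusted p = 0.0264) and 1.05 ± 0.28 in WT (adjusted p = 0.0473). These calls did not hold under scaling to a fixed sum, and were lost in 3 (delta) and 9 (WT) of 12 fits with 1 library left out. Slc25a20, the carnitine and acylcarnitine carrier needed to burn long fatty acids, was at 5.58 and 5.03 FPKM at 24 h against 22.6 and 9.77 FPKM at 0 h in delta. It fell by 1.34 ± 0.38 there (adjusted p = 0.0433, lost in 9 of 12 such fits), and the WT change was -1.02 ± 0.38 (adjusted p = 0.132). The delta call of Slc25a20 did not hold under scaling to a fixed sum either.

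Among the abundant mitochondrial carriers, Slc25a5, Slc25a3, Slc25a39, Slc25a4 and Slc25a13 did not pass in any time comparison, unlike Slc25a1. Slc25a5, the ADP/ATP carrier of dividing cells, was at 617 and 224 FPKM at 0 h, 326 and 305 at 12 h and 385 and 303 at 24 h in delta, and at 419.7 and 287, then 314 and 285, then 362 and 314 FPKM in WT. Its highest values were in the 0 h replicate 1 libraries, those with the large ribosomal protein share. Slc25a4, the ADP/ATP carrier of muscle and heart, was at 159 and 123.7, then 52.7 and 61.7, then 51.1 and 46.1 FPKM in delta. It was at 185 and 92.6, then 92.4 and 37.3, then 75.01 and 28.2 FPKM in WT, where replicate 1, the one with the higher marker sum, was the higher at each time. Whether the 2 are linked was not tested. The 24 h change of Slc25a4 was -1.51 ± 0.53 in delta (adjusted p = 0.0889) and -1.48 ± 0.53 in WT (adjusted p = 0.118). Slc25a3 spanned 120.5 to 171 FPKM, Slc25a39 78.1 to 127 FPKM and Slc25a13, the aspartate and glutamate carrier, 48.1 to 70.6 FPKM over all libraries.

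Among transporters of vitamins, nucleosides and choline, 1 of 9 open to a test rose and 2 fell at 24 h in each genotype, and the most abundant member peaked at 12 h. Slc29a1 (chr17:45585200-45599606), the nucleoside transporter ENT1, was at 38.7 and 40.5 FPKM at 0 h, 84.0 and 92.0 at 12 h and 48.5 and 42.0 at 24 h in delta, and at 43.7 and 42.1, then 118 and 110.5, then 61.0 and 55.0 FPKM in WT. The 12 h libraries were above all others of their genotype. The rise at 12 h was 1.13 ± 0.16 in delta (adjusted p = 0.00471, lost without delta 12 h replicate 2) and 1.39 ± 0.16 in WT (adjusted p = 0.00234). At 24 h the change was 0.18 ± 0.16 in delta (adjusted p = 0.468) and 0.42 ± 0.16 in WT (adjusted p = 0.139). Slc28a1, which takes up pyrimidine nucleosides with sodium, was at 7.29 and 10.5, then 23.6 and 21.6, then 15.7 and 19.01 FPKM in delta, and at 8.97 and 13.5, then 21.7 and 22.7, then 18.9 and 25.7 FPKM in WT. At 24 h it rose by 0.90 ± 0.25 in delta (adjusted p = 0.0401) and 0.94 ± 0.25 in WT (adjusted p = 0.0448), and each call was lost in 9 of 12 fits with 1 library left out. Scaling to a fixed sum also took the WT call of Slc28a1.

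Slc44a1, a choline transporter, was at 19.97 and 35.2 FPKM at 0 h, 16.8 and 20.2 at 12 h and 6.20 and 7.62 at 24 h in delta, and at 23.7 and 29.4, then 18.4 and 22.7, then 7.94 and 9.31 FPKM in WT. Most of the drop thus came after 12 h. The fall at 24 h was 1.81 ± 0.27 in delta (adjusted p = 0.00245) and 1.51 ± 0.27 in WT (adjusted p = 0.00766, lost without WT 24 h replicate 1). Slc5a6, the transporter of biotin and pantothenate, was at 15.5 and 17.02, then 6.85 and 6.18, then 7.68 and 5.99 FPKM in delta, and at 17.01 and 25.4, then 7.10 and 10.2, then 6.85 and 6.87 FPKM in WT, so its drop came before 12 h. At 24 h it fell by 1.15 ± 0.24 in delta (adjusted p = 0.0119, lost without delta 24 h replicate 2) and 1.47 ± 0.24 in WT (adjusted p = 0.00458). The calls of Slc44a1 and Slc5a6 did not hold under scaling to a fixed sum. The thiamine transporter Slc19a2 did not pass, with 14.5 to 38.6 FPKM over all libraries.

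Of 11 transporters of inorganic ions open to a test, 2 rose in delta and 1 in WT at 24 h, and 0 fell. Slc20a1 (chr2:129198764-129211616), the sodium-coupled phosphate importer PiT1, was at 19.7 and 25.3 FPKM at 0 h, 52.4 and 48.6 at 12 h and 57.8 and 63.2 at 24 h in delta. In WT it was at 23.5 and 24.1, then 51.6 and 50.3, then 67.5 and 63.4 FPKM. Replicates lay close together, and no times overlapped. The rise at 24 h was 1.40 ± 0.17 in delta (adjusted p = 0.000829) and 1.42 ± 0.17 in WT (adjusted p = 0.00103). Slc24a5, a calcium exchanger known from pigment cells, rose by 0.83 ± 0.23 in delta (adjusted p = 0.0413, lost in 7 of 12 fits with 1 library left out), with 0.47 ± 0.23 in WT (adjusted p = 0.256). Its reads may include those of Myef2, which it overlaps. The potassium and chloride exporter Slc12a7 did not pass, with 53.6 FPKM in delta 0 h replicate 2 against 14.8 FPKM in replicate 1.

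In the Golgi and endoplasmic reticulum role, 1 of 8 members open to a test rose and 1 fell at 24 h in each genotype. The one that rose, Slc35f2, was placed here by its symbol, so its rise is not read as one of Golgi or endoplasmic reticulum cargo. Slc35f2 was at 35.7 and 29.2 FPKM at 24 h against 14.6 and 14.3 FPKM at 0 h in delta, and at 35.6 and 33.04 against 19.6 and 18.4 FPKM in WT. It rose by 1.11 ± 0.17 in delta (adjusted p = 0.00288) and 0.82 ± 0.17 in WT (adjusted p = 0.0164, lost without WT 0 h replicate 2 or either WT 24 h library). Slc35g1 was at 9.52 and 7.96 FPKM at 24 h against 52.1 and 21.6 FPKM at 0 h in delta, and at 13.0 and 8.44 against 44.9 and 24.7 FPKM in WT. It fell by 1.84 ± 0.41 in delta (adjusted p = 0.0172) and 1.58 ± 0.41 in WT (adjusted p = 0.0423), with the delta call lost in 3 and the WT call in 9 of 12 fits with 1 library left out. Slc35b1, the ATP importer of the endoplasmic reticulum, did not pass, at 17.6 to 29.9 FPKM. Slc35a4 did not pass either, at 10.7 to 25.5 FPKM.

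Of 5 members of the organic ion role open to a test, 0 passed at 12 or 24 h in either genotype. Slc18b1, which loads polyamines into vesicles, was at 2.61 and 2.35 FPKM at 24 h against 6.54 and 6.54 FPKM at 0 h in delta, and at 3.07 and 3.19 against 7.09 and 11.2 FPKM in WT. It was under the threshold in every 24 h library and is given without a test. The most abundant members here, Slc10a7, the nucleotide carrier Slc17a9 of vesicles and the fatty acid transport protein Slc27a4, did not pass, and ran over 9.57 to 14.1, 7.16 to 18.9 and 7.45 to 11.8 FPKM.

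Slc9a3r1, the scaffold NHERF1 that ties surface transporters to the actin cytoskeleton, was at 61.6 and 61.1 FPKM at 0 h, 128 and 136 at 12 h and 103 and 108 at 24 h in delta, and at 68.0 and 54.8, then 141 and 128, then 116 and 108 FPKM in WT. It rose by 1.09 ± 0.17 in delta (adjusted p = 0.00696) and 1.12 ± 0.17 in WT (adjusted p = 0.00801) at 12 h, and by 0.77 ± 0.17 (adjusted p = 0.0164) and 0.86 ± 0.17 (adjusted p = 0.0131) at 24 h. All 12 h libraries were above all others of their genotype. The delta calls were lost without either library of the later time, the WT 12 h call without WT 12 h replicate 1, and the WT 24 h call without WT 0 h replicate 2 or either WT 24 h library. The related scaffold Slc9a3r2 was at 3.599 to 13.9 FPKM and did not pass in a time comparison. Slc7a6os was at 28.6 to 41.4 FPKM and Slc4a1ap at 5.62 to 10.3 FPKM, and neither passed.

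By group means, and with no test, 97 of the 126 members (77%) had the same order of the 3 times in both genotypes, beside 70% of all genes tested and 77% of those that met the same level threshold. The means went down at each step in 34 members (27%, beside 19.3% of all genes and 22.4% of those at the same level threshold). They went up at each step in 19 (15.1%, beside 15% and 14.3%). They were highest at 12 h in 21 (16.7%, beside 17.6% and 18.9%) and lowest at 12 h in 23 (18.3%, beside 18.2% and 21.3%). In 8 members (6.35%) both 12 h libraries were above the other 4 libraries of their genotype in delta and in WT, beside 3.33% of all genes tested and 3.91% of those at the same level threshold. They included Slc29a1, Slc29a3, Slc23a2, Slc35c1, Slc4a2, Slc9a3r1 and Slc9a3r2. Only Slc1a4, a neutral amino acid exchanger, had its 12 h libraries below the rest in both, beside 1.85% of all genes. Slc29a3, the nucleoside transporter of lysosomes, was at 9.08 and 10.1 FPKM at 12 h in delta, with 3.06 to 5.24 FPKM at the other times, and at 9.65 and 12.2 FPKM in WT, with 3.65 to 7.99 FPKM. Slc23a2, which takes up vitamin C, was at 14.3 and 16.2 FPKM at 12 h in delta and 16.98 and 14.7 FPKM in WT, with 5.43 to 12.9 FPKM in the other 8 libraries.

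Members that are low on average or high at 1 time only give the widest swings, which the choice of members favours, so these values carry no test. Slc35d3, a transporter-like protein of the Slc35 family, was at 0.0424 and 0.108 FPKM at 0 h, 3.69 and 2.84 at 12 h and 13.3 and 10.7 at 24 h in delta, and at 0.150 and 0, then 3.21 and 1.56, then 11.4 and 6.91 FPKM in WT. Slc29a4, the monoamine transporter PMAT, was at 1.87 and 3.163, then 4.34 and 3.90, then 9.53 and 14.1 FPKM in delta and at 2.00 and 1.64, then 4.28 and 4.09, then 10.7 and 13.0 FPKM in WT. Both were highest in every 24 h library.

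Slc52a3, the riboflavin transporter RFVT3, lies on chromosome 2 (chr2:151996511-152009258), as does Tcf15, whose regulatory region was deleted. It was at 5.84 and 13.8 FPKM at 0 h, 1.07 and 2.39 at 12 h and 0.188 and 0.280 at 24 h in delta, and at 7.67 and 21.6, then 1.99 and 3.73, then 0.395 and 0.765 FPKM in WT. Each delta library was below the WT library of the same time and number. The 0 h replicates lay far apart, however, and all 24 h values were under 1 FPKM. As for every member, no difference between the genotypes was called, and a link to the deletion was not tested. Slc16a9, a carnitine carrier in human cells, was at 1.90 and 5.99, then 0.477 and 0.731, then 0.151 and 0.180 FPKM in delta and at 4.16 and 10.3, then 0.594 and 0.777, then 0.222 and 0.456 FPKM in WT. Slc22a18, an imprinted gene, reached 5 FPKM in both libraries of delta 0 h only, where it was at 5.25 and 7.07 FPKM, and was at 4.996 and 4.70 FPKM in WT at 0 h. Of these, Slc16a9 overlaps a predicted gene on the other strand over 12.7% of its exons.

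Delta was set against WT to see whether the deletion changed transporter levels. By limma, 0 members were called at 0, 12 or 24 h or averaged over times. Of all genes tested, 0% were called higher at each time and averaged, and 0.00715% lower at 0 h, 0.0143% at 12 h, 0.00715% at 24 h and 0.0143% averaged. At an unadjusted p under 0.05, 0 members were higher in delta at 0, 12 or 24 h, beside 1.24%, 0.501% and 0.744% of all genes. In the other direction 2, 1 and 1 members were lower, beside 0.78%, 0.386% and 0.787% of all genes. Averaged over times 3 members were higher and 4 lower, beside 2.25% and 2.08%. Slc11a1, which met the threshold only in WT libraries, is counted among those lower at 0 h and averaged. The choice of members favours its lower delta level, so nothing is read from these unadjusted counts. Fits with a replicate block or on recovered reads with voom weights also called 0. For the change at 24 h, the difference between genotypes was called for 0 members, beside 0% of genes in either direction, and 0 had an unadjusted p under 0.05, beside 0.436% of genes with a more positive and 0.551% with a more negative delta change. Scaling to a fixed sum shifted the median of that difference by 0.22 and of delta against WT at 0 h by -0.20 (log2).

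Among members open to a test, the 2 smallest p-values averaged over times belonged to Slc9a3r2 and Slc29a1, both with lower values in delta. Slc9a3r2 was at 6.37 and 4.31, then 7.61 and 7.36, then 5.75 and 3.599 FPKM in delta and at 5.68 and 8.54, then 10.4 and 13.9, then 7.30 and 10.1 FPKM in WT, a difference of -0.59 ± 0.17 (limma adjusted p = 1), lower in 5 of 6 pairs. Slc29a1 was 0.28 ± 0.09 lower in delta on the log2 scale (limma adjusted p = 1), in 6 of 6 pairs. Slc11a1, the metal exporter NRAMP1 of phagosomes, met the threshold only in WT libraries and is given without a test. It was at 1.02 to 3.37 FPKM in the 6 delta libraries. In WT it was at 4.64, 1.505 and 5.204 FPKM in replicate 1 at 0, 12 and 24 h and at 12.3, 10.5 and 13.2 FPKM in the other replicate. For the change at 24 h, the smallest p among members open to a test was that of Slc25a36, whose delta change minus WT change was -0.61 ± 0.32 (limma adjusted p = 1).

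Partners of solute carriers and transporters with other symbols were followed through a list of 32 genes, of which 22 were tested. In delta at 24 h 1 rose and 3 fell, beside 7.58% and 7.8% of all genes tested. In WT 2 rose and 3 fell, beside 5.27% and 4.94%. Nothing is read from counts this small. Emb, or embigin, a chaperone that brings monocarboxylate transporters to the surface, was at 6.38 and 1.64 FPKM at 0 h, 43.1 and 26.5 at 12 h and 110.5 and 95.6 at 24 h in delta. In WT it was at 7.62 and 1.16, then 30.7 and 10.8, then 88.6 and 61.7 FPKM. The rise at 24 h was 4.55 ± 0.72 in delta (adjusted p = 0.00311) and 4.12 ± 0.72 in WT (adjusted p = 0.00697). Bsg, or basigin, the other chaperone of these transporters, did not pass, at 167 and 156 FPKM at 24 h against 318 and 245 FPKM at 0 h in delta and at 159 and 164 against 321 and 196 FPKM in WT. Mfsd1, a lysosomal dipeptide exporter, fell by 0.81 ± 0.16 in delta (adjusted p = 0.00911) and 0.85 ± 0.16 in WT (adjusted p = 0.00937). The others called at 24 h were Mtch1, a protein of the outer mitochondrial membrane, and Ostm1, a partner of a lysosomal chloride exchanger, both lower in each genotype, and the organic anion transporter Slco4a1, higher in WT.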

How the data were processed

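Messenger RNA of 12 libraries was sequenced, and the authors deposited FPKM values per gene. The submitters' processing notes list cutadapt, STAR 2.5.2b, featureCounts 1.5.1, edgeR 3.16.5 and mm10, with no roles. Genes with at least 1 FPKM in at least 2 libraries (13981) entered 1 limma fit of 6 group means on log2(FPKM + 1), which understates changes of low genes, with a mean-variance trend and Benjamini-Hochberg adjustment at 0.05. All adjusted p-values come from limma 3.58.1 (R 4.3.3), with Python 3.11.15, numpy 2.4.6, pandas 2.3.3 and matplotlib 3.10.9 for the rest, and each ± beside a log2 change is the SE of the fit. The scripts were tested on simulated data. Whole reads recovered from the FPKM steps (tolerance 0.01) for 28656 of 28657 genes gave depth, shares of reads and an alternative with voom weights. Positions come from GENCODE M21 (mm10) and promoters from RefSeq.

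Members and gene lists were chosen with earlier results of these data known. The named genes are the largest changes at 24 h called without overlap, the most abundant members overall and by role, the smallest genotype p-values, genes at the threshold and fixed pairs. Same-numbered delta and WT libraries deviated from their group means together (correlations 0.70, 0.28 and 0.37 at 0, 12 and 24 h). Groups of different times did so too, at 0.46 for delta at 24 h with WT at 0 h and for WT at 12 h with 24 h. Pairs of libraries in the report are those with the same number, and pairing of the genotypes within a time is not shown. A block for the replicate number changed no genotype call. Beside the lists in the report, 5 trophoblast markers summed to 15.4 to 41.7 FPKM and 3 neural markers to 2.13 to 10.1 FPKM. Alternatives were another pseudocount, no filter, 2 other scalings, voom weights, the block, 2 other member thresholds and each library left out. The values of 1 member are not reported here.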

Additional observations from a re-analysis of the deposited data

Results flagged for a closer look

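Slc9a3r2, a scaffold protein, was the 1 member of 126 whose change at 24 h against 0 h went opposite ways in the genotypes in every same-numbered pair of libraries. The log2 change was -0.21 and -0.13 in the delta pairs and 0.22 and 0.31 in the WT pairs, so the delta change minus the WT change was -0.434. In the limma test of that difference the SE was 0.41 and the adjusted p = 1, so the difference did not pass. Groups of 2 libraries allow no check for a single library far from the others. How many of all genes tested moved this way was not counted, so nothing is read from the count among members. The pairs follow the replicate number only, and pairing of the libraries is not shown.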

How the results depend on the processing

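None of the counts or single member results run changed direction. The median change of all genes did so under scaling to a fixed sum, to 0.36 (delta) and 0.12 (WT) at 12 h and 0.37 and 0.17 at 24 h, against -0.03 and -0.02 at 12 h and -0.05 and -0.03 at 24 h, and to -0.18 against 0.01 for delta against WT at 0 h. The counts of members called, however, depended on single libraries. With 1 library left out, the delta counts at 12 h were 3 to 24 higher and 0 to 17 lower, and at 24 h 8 to 29 higher and 9 to 24 lower. The WT counts were 3 to 15 higher and 0 to 9 lower at 12 h, and 8 to 17 higher and 6 to 19 lower at 24 h. The lowest of each came without a library of the later time (delta 12 h replicate 1 or 2, delta 24 h replicate 2, WT 12 h replicate 1, WT 24 h replicate 1) and the highest without a delta library of 0 h. With 1 library left out, a group of 1 is assumed to vary like the others. Without both 0 h replicate 1 libraries, a choice made after seeing the data, 27 (delta) and 13 (WT) were lower at 12 h and 36 and 27 at 24 h. Scaling to a fixed sum left 1 (delta) and 1 (WT) lower at 12 h and 7 and 6 at 24 h. With no filter, 3 were lower in WT at 12 h. With the replicate block in time comparisons, where 2 pairs cannot show pairing (correlations between groups ran from -0.07 to 0.70), 15 were lower in delta at 12 h, and 14 were higher and 9 lower in WT at 12 h. All genotype counts stayed at 0 in these fits. Of 52 calls of single members, 52 were kept with voom weights, median ratio scaling, the block and a pseudocount of 0.1, 48 without both 0 h replicate 1 libraries, 41 with no filter and 30 with scaling to a fixed sum. The partner gene Bsg passed in delta at 24 h with the block (limma adjusted p = 0.0433, against 0.0673 without it). The causes were not tested. With 2 libraries in each group, small changes cannot be told from the spread between replicates.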
